A study of Homo sapiens with 4 samples.

Results

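The domain borders kept in all 4 Hi-C libraries were examined in hPSCs of the line H1, a widely used human embryonic stem cell line. Hi-C ligates and sequences pieces of chromatin that are close in space, and the authors had turned these contacts into domains, which are stretches of a chromosome that contact themselves. A border was the start or the end of a domain, and each position was counted once per library. All positions were multiples of 40 kb, so 40 kb was the smallest step that could be seen. A border of shLUC replicate 1 on the 22 autosomes was taken as kept when each of the other 3 libraries had a border within 40 kb, and when it lay more than 120 kb from every gap in the files of any library. This gave 1543 of 4652 borders, or 33.2%.

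The control cells carried a short hairpin RNA against luciferase (shLUC), and the knockdown cells a short hairpin RNA targeting HNRNPU (shHNRNPU). Each group had 2 libraries. Both groups were H1 cells grown in mTeSR1 on Matrigel, infected with lentivirus, selected with puromycin, crosslinked with formaldehyde and cut with HindIII. The labels do not say whether the repeats came from separate cultures, so the spread between libraries may be technical. The p-values below rank a difference among the possible exchanges of library labels, and apply to these libraries only. The level of HNRNPU, a nuclear RNA-binding protein, was not measured here, because the files hold intervals without expression values.

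In mammalian cells, domains form largely where the ring-shaped cohesin complex extrudes loops of chromatin until it meets the DNA-binding protein CTCF. Borders made in this way limit the contacts between enhancers and the genes of the next domain. Borders are also known to lie near the starts of active genes, and housekeeping genes in particular. In the files, a border was either flush, where 1 domain ended at the position where the next began, or it lay beside a boundary region, which is a stretch that the authors placed between 2 separate domains.

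Of the 1543 kept borders, 23 were the start or the end of a chromosome, where every library has a domain edge by construction. They were left out of everything that follows, and 1520 kept borders inside chromosomes remained. These were 38.6% of the 3939 borders of shLUC replicate 1 that lay inside chromosomes and away from gaps. Over the autosomes there were 4652 and 4650 borders with shLUC, and 4513 and 3956 with shHNRNPU, so shHNRNPU replicate 2 stood apart with the fewest. The sequencing depth is unknown.

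Of the 3939 borders, 66.7% (2628) had a border within 40 kb in shLUC replicate 2, 66.7% (2627) in shHNRNPU replicate 1 and 54.2% (2134) in shHNRNPU replicate 2. These shares were part of the choice and are given as a description. For scale, 17.8% of the 65622 bin edges away from gaps lay within 40 kb of a border of shLUC replicate 1. The same share was 17.6% for shLUC replicate 2, 17.6% for shHNRNPU replicate 1 and 15.0% for shHNRNPU replicate 2, and 5.71% of bin edges lay within 40 kb of a border in all 4 libraries. Among the borders that were not kept, 1023 were found in 2 of the other libraries, 783 in 1 and 613 in 0. The requirement that removed most borders was a match in shHNRNPU replicate 2, since 2094 borders were kept in the remaining 3 libraries when this library was left out. Leaving out any of the other libraries gave 1741 to 1753.

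The matching allowed a kept border to differ by at most 40 kb from shLUC replicate 1, and the positions within that limit are given as a description. In shLUC replicate 2, 59.9% (911) lay at the same position as in shLUC replicate 1, with 316 a step of 40 kb lower and 293 a step higher. In shHNRNPU replicate 1, 59.7% (907) were at the same position, and in shHNRNPU replicate 2 53.9% (820). Shifts to lower and to higher positions were about as frequent in each library. The pair of shHNRNPU libraries placed 53.8% at the same position. All 3 pairs with shHNRNPU replicate 2 lay between 53.8% and 54.1%, and the 3 pairs without it between 58.5% and 59.9%, whether or not the pair was of the same group. All 4 libraries agreed on the position of 427 kept borders (28.1%). A further 913 were spread over 40 kb and 180 over 80 kb. Just inside the limit, 1093 borders had their farthest match at 40 kb, and just outside it 475 borders had theirs at 80 kb. Near the other limit, 7 kept borders lay 160 kb from a gap, and 10 more matched in all libraries but lay 120 kb from one.

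**Figure D1:**
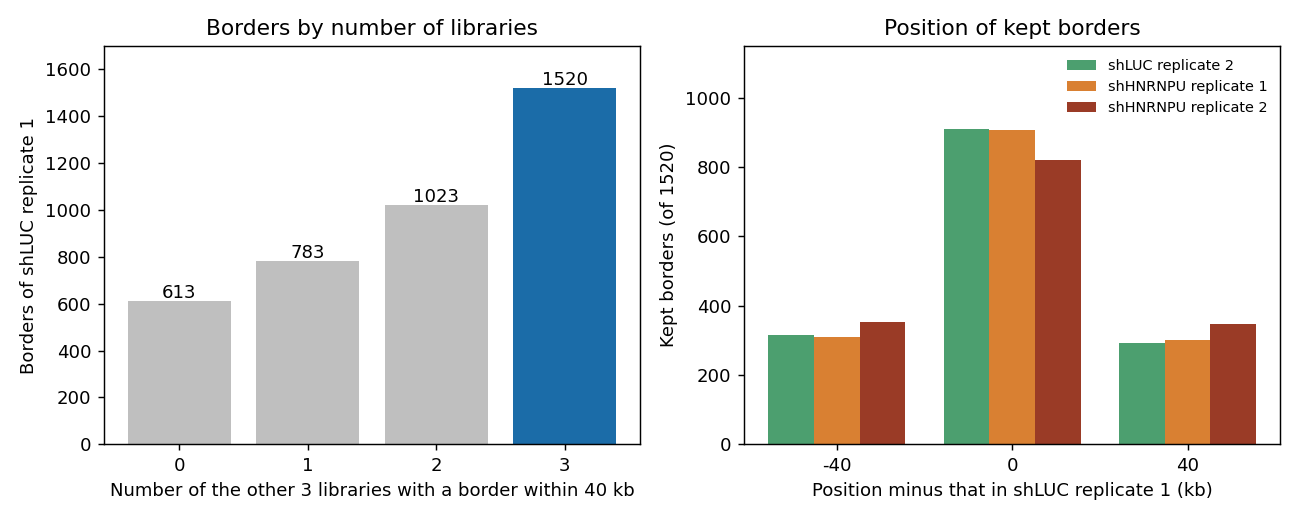
Left, borders of shLUC replicate 1 inside autosomes and away from gaps, by the number of the other 3 libraries with a border within 40 kb (bars, number of borders); 1520 borders were kept in all. Right, position of the kept borders in each of the other libraries relative to shLUC replicate 1 (x axis in kb, bars are numbers of borders); 820 to 911 were at the same position.

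The sequence of a border cannot be read at steps of 40 kb, but the gene starts that lie nearest can. RPS23, which encodes a protein of the small ribosomal subunit, started 1.65 kb from a kept border on chromosome 5. HOXA13, the last gene of the HOXA cluster of body-plan regulators, started 0.091 kb from a kept border on chromosome 7. SOX2, a transcription factor of the pluripotent state, started 8.07 kb from a kept border on chromosome 3. UTP15, which takes part in ribosome assembly, started 5.74 kb from a kept border at the edge of a boundary region on chromosome 5. These distances are to the positions in shLUC replicate 1, which are known only in steps of 40 kb. In another library a border could lie 40 kb away, as that beside HOXA13 did in shLUC replicate 2. The 250 bases before these starts are shown because they are the promoters beside the borders described by name below. They are from RefSeq (GRCh38.p14), read 5′ to 3′ along the strand of the gene, and capitals mark CG dinucleotides, of which there were 16 for RPS23, 40 for HOXA13, 20 for SOX2 and 16 for UTP15.
RPS23, chr5:82278355-82278604, minus strand: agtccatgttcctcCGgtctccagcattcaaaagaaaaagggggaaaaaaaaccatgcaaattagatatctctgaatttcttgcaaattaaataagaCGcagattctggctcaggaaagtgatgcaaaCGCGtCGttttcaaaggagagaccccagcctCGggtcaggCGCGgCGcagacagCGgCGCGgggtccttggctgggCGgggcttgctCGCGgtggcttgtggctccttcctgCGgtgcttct
HOXA13, chr7:27200092-27200341, minus strand: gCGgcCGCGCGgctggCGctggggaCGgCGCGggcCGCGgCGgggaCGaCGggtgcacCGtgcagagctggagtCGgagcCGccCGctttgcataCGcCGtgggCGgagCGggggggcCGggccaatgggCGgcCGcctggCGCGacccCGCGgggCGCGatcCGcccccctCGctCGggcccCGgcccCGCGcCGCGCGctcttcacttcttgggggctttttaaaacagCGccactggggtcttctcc
SOX2, chr3:181711675-181711924, plus strand: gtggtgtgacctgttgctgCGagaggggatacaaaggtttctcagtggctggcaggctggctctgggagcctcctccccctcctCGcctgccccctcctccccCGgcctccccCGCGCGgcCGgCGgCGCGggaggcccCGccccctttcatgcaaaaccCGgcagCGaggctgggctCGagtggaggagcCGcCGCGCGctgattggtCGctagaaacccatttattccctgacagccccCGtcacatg
UTP15, chr5:73565493-73565742, plus strand: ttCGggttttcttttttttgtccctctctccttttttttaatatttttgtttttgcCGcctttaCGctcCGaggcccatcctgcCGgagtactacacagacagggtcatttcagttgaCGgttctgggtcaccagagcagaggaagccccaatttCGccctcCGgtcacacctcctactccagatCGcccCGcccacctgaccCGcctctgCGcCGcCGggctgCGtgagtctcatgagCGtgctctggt

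The 1392 protein-coding promoters (300 bases) whose start lay within 40 kb of a kept border had a median of 21 CG dinucleotides, and so did all 21041 promoters of the table.

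Gene starts were concentrated at the kept borders. Start sites came from RefSeq (GRCh38.p14), which has the coordinates of hg38, the build named in the submitters' processing notes. They covered 82.0% of the protein-coding genes of 21 autosomes (chromosome 8 was not analysed for starts), which left 1442 kept borders. The 40 kb windows directly beside a kept border held 0.481 protein-coding starts on the lower side and 0.485 on the upper side on average. This fell to 0.353 and 0.328 in the next windows out. Over windows from 120 to 320 kb away the mean was 0.274 starts, so the border windows held 1.76 times as many. On all 21 autosomes the border windows held more starts than the windows farther away. Over all bin edges the mean was 0.311 starts, at the edge, and 0.312 farther out.

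At least 1 protein-coding start lay within 40 kb of 49.5% of the kept borders (714 of 1442, 95% Wilson interval 46.9% to 52.1%). The same was true of 31.7% of all bin edges, and the kept borders had the higher share on 21 of 21 autosomes. The share was 50.8% when shHNRNPU replicate 2 was left out of the matching. Borders that were not kept did not have a lower share throughout. It was 52.9% (49.8% to 56.0%) for borders found in 2 of the other libraries, 53.5% (49.9% to 57.1%) for those found in 1, and 41.8% (37.8% to 45.9%) for those found in 0. The kept borders had a higher share than the other borders of shLUC replicate 1 on 11 of 21 chromosomes. These classes come from the same libraries and regions of 1 genome are not replicates, so no test was made, and the Wilson intervals cover counting error only.

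What ranked the classes in order was the contrast with the surroundings, and not the number of starts at the border. The border windows of kept borders held 0.483 starts per 40 kb. Those of borders found in 2, 1 and 0 of the other libraries held 0.545, 0.560 and 0.448. The ratio of starts at the border to starts 120 to 320 kb away was 1.76 for kept borders, 1.55 and 1.46 for borders found in 2 and in 1 of the other libraries, and 1.19 for those found in 0. The surroundings of kept borders were the poorest in gene starts, with 0.274 per 40 kb against 0.352, 0.383 and 0.376. On 19 of 21 chromosomes the surroundings of kept borders held fewer starts than those of the other borders, and on 17 of 21 the ratio was higher. Of the 427 borders at the same position in all 4 libraries, 403 were on the 21 chromosomes with start sites. Their ratio was 1.83, from 0.434 starts per 40 kb at the border and 0.237 in the surroundings.

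**Figure D2:**
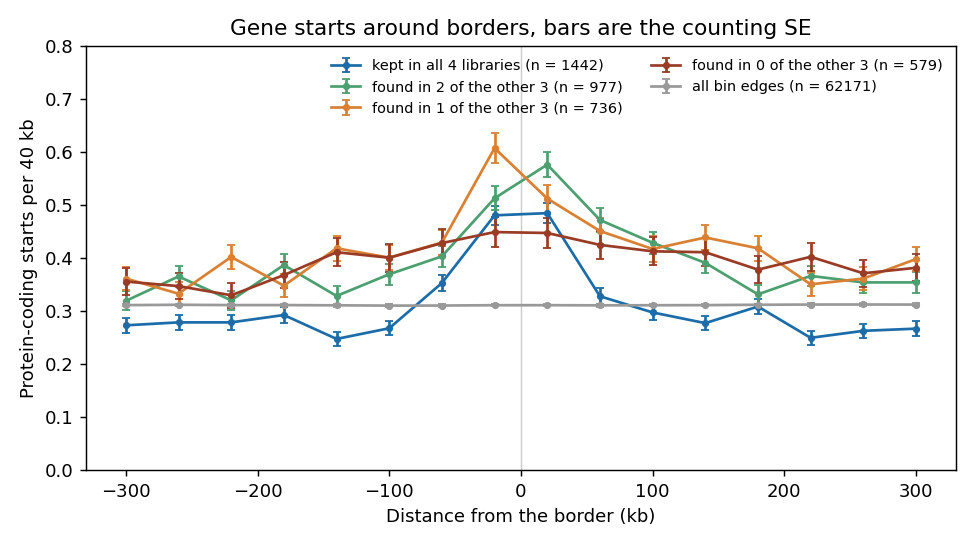
Mean number of protein-coding starts per 40 kb window (y axis) against the distance of the window from the border (x axis, kb), for borders grouped by the number of libraries that shared them and for all bin edges; bars are the counting SE. Kept borders peak at 0.485 from surroundings of 0.274, and bin edges stay near 0.311.

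Genes pointed either way about equally. Of the 1392 starts within 40 kb of kept borders, 684 (49.1%, 46.5% to 51.8%) pointed away from the border into their own domain. The share for all bin edges was 50.0%. Starts of long noncoding RNAs lay within 40 kb of 31.6% of kept borders (29.3% to 34.1%) and of 27.1% of bin edges. Borders found in 2 and in 1 of the other libraries had 34.6% and 33.6%, so this was not particular to kept borders. A kept border fell inside the body of a protein-coding gene in 49.7% of cases (755 of 1520, 47.2% to 52.2%), and a bin edge in 44.1%. The share was 52.9% for borders found in 2 and also for those found in 1 of the other libraries.

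Kept borders were compared with the sets most like them. There were 156 borders of both shLUC libraries with no border within 120 kb in either shHNRNPU library, and 368 that by the same distance were missing only in shHNRNPU replicate 2. Start sites covered 142 borders of the first set and 354 of the second. A protein-coding start lay within 40 kb of 51.4% (73 of 142, 43.3% to 59.5%) and 54.8% (194 of 354, 49.6% to 59.9%) of these. Both intervals overlapped that of the kept borders. Their surroundings held 0.412 and 0.400 starts per 40 kb, and the ratios of border to surroundings were 1.34 and 1.45.

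The gene lists showed where well-known genes stood. A gene body lay within 40 kb of a kept border for 10.6% of all 19126 autosomal protein-coding genes (2023), and 761 genes contained one. Ribosomal protein genes, which every cell expresses, had 5 of 69 members there (7.25%, 3.13% to 15.9%): RPL12, RPL17, RPLP1, RPS12 and RPS23. Counted by start site, where the length of a gene plays no part, the order turned, with 5 of 58 ribosomal protein genes (8.62%, 3.74% to 18.6%) and 7.15% of all protein-coding genes (1079 of 15101). Both intervals for the ribosomal protein genes included the value of all genes. Olfactory receptor genes, which lie in large clusters and are silent in most cells, had 10 of 391 by gene body (2.56%, 1.40% to 4.64%) and 9 of 313 by start (2.88%). Of the tRNA genes, 19 of 439 (4.33%) lay within 40 kb. Counted by border, 0.921% of kept borders (0.549% to 1.54%) and 0.468% of bin edges had a tRNA gene nearby. Borders found in 2, 1 and 0 of the other libraries had 0.782%, 1.15% and 0.816%, so this was not particular to kept borders. These counts are a description, and neighbours within a cluster share a border.

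HOX genes had 8 of 39 members within 40 kb (20.5%, 10.8% to 35.5%), but these came from only 2 kept borders. On chromosome 7 the border beside HOXA9, HOXA10, HOXA11 and HOXA13 lay at 27200000 in 3 libraries and at 27160000 in shLUC replicate 2, where it was beside a boundary region. The gene HOXA13 (27194364 to 27200091) spanned the position of the border in shLUC replicate 1. On chromosome 2 the border beside HOXD10, HOXD11, HOXD12 and HOXD13 lay at 176080000 in shLUC replicate 1 and shHNRNPU replicate 1, and at 176120000 in the other replicate of each group. It was flush in all 4 libraries.

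Of 18 autosomal pluripotency genes, SOX2 alone lay within 40 kb of a kept border. This was 5.56% by gene body, with an interval of 0.988% to 25.8% that included the share of all genes. By start it was 7.69% of the 13 genes with a listed start, which is under 80% of the list. The border beside SOX2 was at 181720000 on chromosome 3 in 3 libraries and at 181680000 in shLUC replicate 2, and was flush in all 4. It separated domains of 480 and 1000 kb in shLUC replicate 1. LIN28A lay 90.3 kb, NANOG 149 kb, SALL4 357 kb and POU5F1 389 kb from the nearest kept border. The median distance was 963 kb for the pluripotency genes and 683 kb for all protein-coding genes. The border beside RPS23 was at 82280000 on chromosome 5 in 3 libraries and at 82320000 in shHNRNPU replicate 1.

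Most kept borders were flush. In shLUC replicate 1, 1218 of 1520 were flush (80.1%, 78.1% to 82.1%) and 302 lay beside a boundary region. In shLUC replicate 2 the counts were the same, although not for the same borders. In shHNRNPU replicate 1, 1225 were flush (80.6%) and in shHNRNPU replicate 2 1240 (81.6%). Among the other borders of each library, 67.4%, 68.5%, 68.7% and 70.0% were flush, and in each of the 4 libraries these intervals lay below that of the kept borders. The share of flush borders in shLUC replicate 1 was lower where fewer libraries shared a border, from 80.1% for kept borders to 70.3%, 67.7% and 62.2% for those found in 2, 1 and 0 of the other libraries. Borders missing from both shHNRNPU libraries had 81.4% (74.6% to 86.7%).

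**Figure D3:**
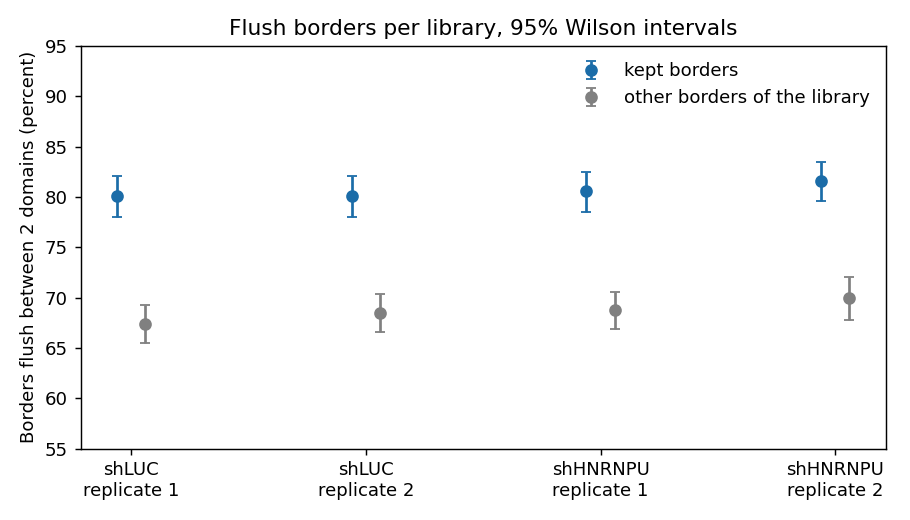
Percent of borders that were flush between 2 domains (y axis from 55 to 95%) in each library, for kept borders and for the other borders of the same library away from gaps; bars are 95% Wilson intervals. The kept borders sit between 80.1% and 81.6% and the others between 67.4% and 70.0%.

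The libraries often differed in what lay beside a kept border. Of the kept borders, 791 (52.0%) were flush in all 4 libraries, 419 in 3, 190 in 2 and 100 in 1. Only 20 (1.32%) lay beside a boundary region in every library. Of the 631 autosomal boundary regions of shLUC replicate 1, 17 had both edges kept, and in 3 of these all 4 libraries had 1 boundary region between the same edges. The longest of the 17 were 280 kb in shLUC replicate 1. The first ran from 73560000 to 73840000 on chromosome 5, and 2 of the 4 libraries had 1 boundary region there. The genes ANKRA2 and UTP15 started 5.64 and 5.74 kb above its lower edge, on opposite strands. The second ran from 102560000 to 102840000 on chromosome 13, and only 1 of the 4 libraries had 1 boundary region there. TPP2, a peptidase gene, started 37.0 kb above its lower edge. ERCC5, a DNA repair gene, started 6.03 kb above its upper edge. The third ran from 61880000 to 62160000 on chromosome 14, as 1 boundary region in 2 of the 4 libraries, with SYT16 across its lower edge. The fourth, of 240 kb, ran from 67520000 to 67760000 on chromosome 1, with GNG12 across its upper edge. It was 1 boundary region in only 1 of the 4 libraries.

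Turned round, 42.8% of the flush borders of shLUC replicate 1 were kept (41.0% to 44.6%) and 27.7% of those beside a boundary region (25.1% to 30.4%). Among flush borders the kept share also followed the size of the neighbours. It was 14.7% where the shorter of the flanking domains was under 200 kb, 34.3% from 200 kb to under 400 kb, 50.5% from 400 kb to under 800 kb and 52.7% from 800 kb (47.0% to 58.4%). Within 5 Mb of a chromosome end 27.8% of borders were kept (60 of 216, 22.2% to 34.1%), and 39.2% elsewhere.

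Neighbouring kept borders were 1040 kb apart at the median, over 1340 intervals that held no gap. The middle 50% of these distances ran from 680 to 1880 kb. The borders of shLUC replicate 1 as a whole were 520 kb apart, with a middle range of 280 to 800 kb. The closest kept borders lay 80 kb apart. Distances of up to 400 kb made up 5.60% of intervals, 44.0% were over 400 kb and up to 1 Mb, 28.2% up to 2 Mb, 18.7% up to 4 Mb and 3.51% over 4 Mb. The median stood at 1040 kb at the positions of all 4 libraries. It was 840 kb when shHNRNPU replicate 2 was left out of the matching.

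**Figure D4:**
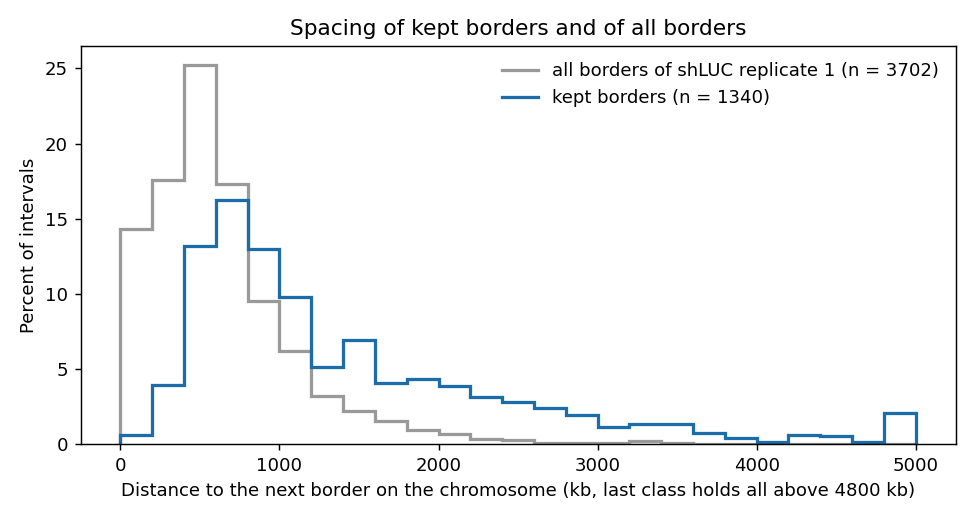
Distance from each border to the next on the chromosome (x axis, kb) as a percent of intervals (y axis), for the kept borders (1340 intervals) and for all borders of shLUC replicate 1 away from gaps (3702 intervals). The medians are 1040 and 520 kb.

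In 316 of the 1340 intervals (23.6%) all 4 libraries had 1 domain that filled the interval. These domains had a median length of 600 kb and covered 221.92 Mb in shLUC replicate 1. Only 35 of them had the same start and end in all 4 libraries. The longest ran from 15800001 to 20600000 on chromosome 18, was 4.8 Mb in all 4 libraries and was touched by 0 protein-coding genes. The next was from 52800001 to 55560000 on chromosome 10 (2.76 Mb, 1 gene), followed by 134560001 to 137040000 on chromosome 3 (2.48 Mb, 10 genes) and 122520001 to 124760000 on chromosome 1 (2.24 Mb, 0 genes). The domains with 0 genes lie at the centromeres of chromosomes 18 and 1, where the reference sequence is built from repeats.

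Some kept borders were far from any other border. At the same position in all 4 libraries and flush in each, the border at 43360000 on chromosome 9 lay 2160 kb from the nearest other border of any library, and that at 15800000 on chromosome 18 lay 2000 kb away. No protein-coding gene lay within 40 kb of either. The border on chromosome 18 was the start of the 4.8 Mb domain at the centromere, where the reference is built from repeats. That on chromosome 9 separated domains of 4720 and 2160 kb in shLUC replicate 1, and its place relative to repeats was not examined. The next farthest from any other border lay at 13040000 on chromosome 2 (1240 kb), followed by 3 borders with 960 kb on chromosomes 3, 8 and 19. The border at 137040000 on chromosome 3 lay beside IL20RB, which encodes a cytokine receptor subunit. That at 30680000 on chromosome 19 lay inside ZNF536, a zinc finger gene.

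The longest stretches with no kept border were on chromosomes 16, 17, 22 and 7. From 65120000 to 76680000 on chromosome 16, over 11.56 Mb, the shLUC libraries had 18 and 17 borders and the shHNRNPU libraries 11 and 7, with 0 of them kept. The stretch on chromosome 17 (40800000 to 48960000) was touched by 226 protein-coding genes, and held 8 and 9 borders in shLUC and 8 and 5 in shHNRNPU. On chromosome 22 (26360000 to 34400000) there were 13 and 13 borders in shLUC, 15 in shHNRNPU replicate 1 and 7 in shHNRNPU replicate 2. On chromosome 7 (134400000 to 142280000) there were 8 and 12 in shLUC and 7 and 8 in shHNRNPU.

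The chromosomes differed in how many of their borders were kept. The share was highest on chromosome 7 (48.1%, 87 of 181), chromosome 18 (45.6%, 52 of 114) and chromosome 4 (44.0%, 122 of 277). It was lowest on chromosome 19 (15.2%, 7 of 46, interval 7.57% to 28.2%), chromosome 22 (22.4%, 11 of 49) and chromosome 17 (23.2%, 26 of 112). The median over chromosomes was 38.0%. In kept borders per Mb, the autosomes ranged from 0.127 on chromosome 19 to 0.763 on chromosome 15, with 0.579 for all. The borders of shLUC replicate 1 ranged from 0.837 to 1.84 per Mb.

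Chromosome 19 had the most protein-coding genes per Mb (24.7), followed by chromosome 17 (14.0), and chromosomes 13 (2.95), 18 (3.36) and 4 (4.05) had the fewest. Over the 22 autosomes the kept share and the gene density had a Pearson r of -0.796 and a Spearman rho of -0.582, given as a description, since all chromosomes come from the same 4 libraries. Without chromosome 19 the r was -0.701. On every autosome, gene-rich or not, the match was lost most often in shHNRNPU replicate 2. This library had 26.1% of the borders of chromosome 19 and 26.5% of those of chromosome 22. On the same chromosomes shHNRNPU replicate 1 had 63.0% and 55.1%, and shLUC replicate 2 had 50.0% and 61.2%. On chromosome 17 the shares were 64.3% in shLUC replicate 2, 51.8% in shHNRNPU replicate 1 and 42.0% in shHNRNPU replicate 2. Without shHNRNPU replicate 2 the kept share rose to 39.1% on chromosome 19, 42.9% on chromosome 22 and 37.5% on chromosome 17. The highest was then 63.5%, on chromosome 7, and the r and rho with gene density were -0.645 and -0.354. The part of this library's smaller number of borders in the pattern was not tested further.

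The same pattern was seen around single borders. Of borders with 1 to 2 protein-coding starts within 320 kb, 47.9% were kept (44.3% to 51.6%), and 44.3% of those with 3 to 5. This fell to 34.6% with 6 to 10 starts and 25.6% with over 10 (22.1% to 29.4%). Borders with 0 starts nearby were kept in 36.2% of cases (32.0% to 40.6%), so the poorest surroundings did not have the highest share. Without shHNRNPU replicate 2 these shares were 59.8%, 59.5%, 50.2% and 43.4%, and 47.8% for borders with 0 starts.

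**Figure D5:**
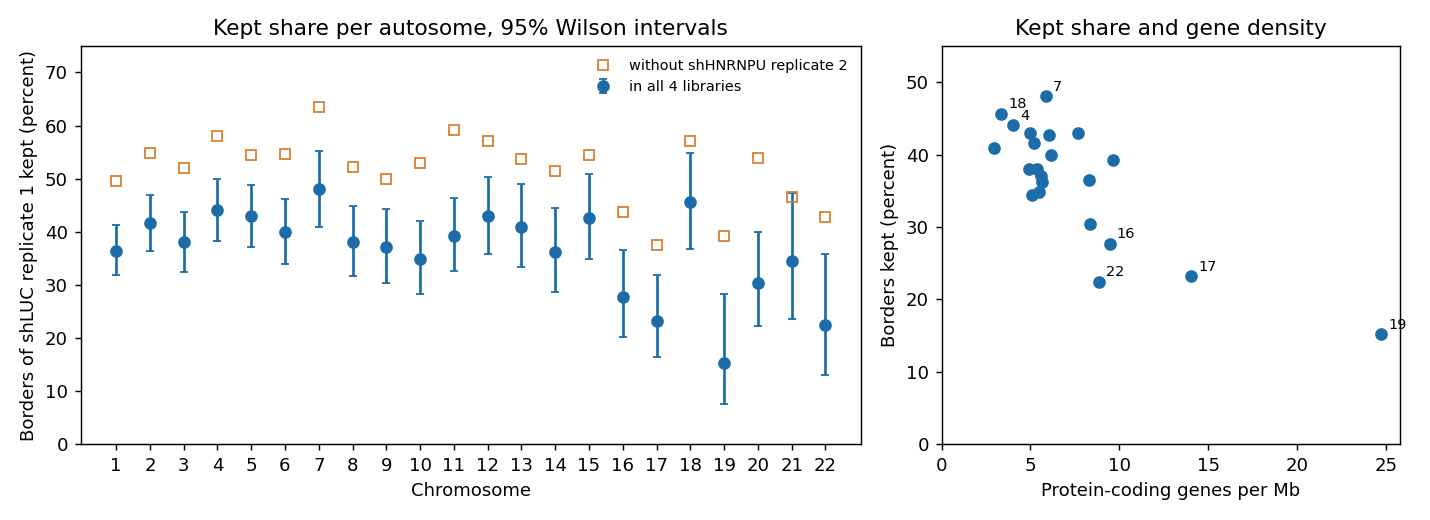
Left, percent of the borders of shLUC replicate 1 that were kept on each autosome (points with 95% Wilson intervals), and the percent kept without shHNRNPU replicate 2 (open squares). The lowest shares are on chromosomes 19 (15.2%), 22 (22.4%) and 17 (23.2%). The squares cannot lie below the points, since they leave out a required match. Right, percent kept against the protein-coding genes per Mb of each autosome, from chromosome 13 at 2.95 to chromosome 19 at 24.7 genes per Mb.

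Finally, the groups were compared at the kept borders on 4 measures, with 1 value per library. With shLUC, 80.1% of the kept borders were flush in either library, and with shHNRNPU 80.6% and 81.6%. The difference of the means was 0.954 percentage points, larger than the SD of the shHNRNPU libraries (0.698), with a two-sided exact permutation p of 0.333 (n = 2 per group). This is the smallest p that 2 libraries against 2 can give, so none of these comparisons could pass the usual threshold. The number of borders that lay between neighbouring kept borders was 1.278 and 1.279 per interval in shLUC, and 1.246 and 1.046 in shHNRNPU. The difference was -0.132 borders per interval (exact permutation p = 0.333, n = 2 per group). It was -0.0325 without shHNRNPU replicate 2, the library with the fewest borders overall. This measure counts the borders that the matching left over and follows the total of borders in each library. It is not independent of the choice, so no conclusion is drawn from it.

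The domains that touched a kept border had a median length of 640 and 600 kb in shLUC and 640 and 680 kb in shHNRNPU. The groups overlapped, and the difference of 40 kb was near the SD of 28.3 kb within each group (exact permutation p = 0.667, n = 2 per group). Over all autosomal domains the medians were 560 and 560 kb in shLUC and 600 and 640 kb in shHNRNPU, where the groups did not overlap. Domain length also follows the number of borders in a library, which was 4652 and 4650 in shLUC and 4513 and 3956 in shHNRNPU. The part of these numbers in the differences of domain length was not tested. The boundary regions that touched a kept border had a mean length of 151 and 142 kb in shLUC, and of 152 and 122 kb in shHNRNPU. Over all autosomal boundary regions the means were 144 and 138 kb, and 146 and 119 kb. The difference of -9.47 kb was within the SD of the shHNRNPU libraries (21.6 kb, exact permutation p = 1, n = 2 per group). Without shHNRNPU replicate 2 it was 5.80 kb. After Benjamini-Hochberg adjustment over the 4 measures the p-values were 0.667 to 1.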

How the data were processed

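The authors deposited 3 interval lists for each of the 4 libraries (12 files), which give domains, boundary regions and gaps by chromosome, start and end, with no score or read count. The submitters' processing notes name Bowtie2 and hg38. The domain caller, the matrix normalization and their settings are not given in the sources used here, and each can change the number and place of borders. The paper named for these data describes neither Hi-C nor HNRNPU, and no method was taken from it. On every chromosome the last interval ended 43.8 to 165 kb beyond the last RefSeq gene of GRCh38.p14. A border at a position lies after the base of that number, counted from 1.

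Each border of shLUC replicate 1 was matched to the nearest border of each other library, ties going to the lower position. In shLUC replicate 2 and in shHNRNPU replicate 2, 1517 distinct borders matched the 1520. Borders named in the text are those at the same position in all libraries and farthest from any other border, the longest stretches and the longest kept domains. The longest boundary regions of shLUC replicate 1 with both edges kept were also named. Genes named lie within 40 kb of them or belong to fixed lists. The members and lists were chosen with earlier results of these data known. HOX genes had a listed start site for 51.3% of members and pluripotency genes for 72.2%, so the lists were counted first by gene body. Group means were compared by an exact permutation test of the library labels, with same-numbered libraries as a block as an alternative. The matching and the tests were tested on simulated data. Python 3.11.15, numpy 2.4.6, scipy 1.17.1, pandas 2.3.3, statsmodels 0.14.6 and matplotlib 3.10.9 were used.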

Additional observations from a re-analysis of the deposited data

How the results depend on the processing

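Of the alternatives, counting chromosome ends (1543 borders), allowing gaps between kept borders, gene bodies in place of starts, and the shares without shHNRNPU replicate 2 were chosen after seeing the data. The number of kept borders fell from 1520 to 427 when the position had to be the same in all 4 libraries, and stayed within 1.5-fold in the other settings. It was 1995 with a match within 80 kb, 1879 with borders near gaps, and 1481 to 1518 with another library as the starting point. With each library left out it ranged from 1741 to 2094. The median spacing was 2700 kb with the same position required, 1000 kb with borders near gaps, 1160 kb with gaps allowed between, and 840 to 960 kb with each library left out. The first follows from fewer borders and the last from more. The share of kept borders near a protein-coding start was 64.6% within 80 kb, 62.5% with noncoding genes added, 45.7% with the same position required and 78.7% for gene bodies. The bin edges had 46.8%, 47.1% and 62.1% for the first, second and last of these. It ranged from 48.8% to 50.8% with each library left out.

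Of the group differences, the flush share changed sign with the same position required (-0.351 percentage points), the difference in domain length became 0 kb in that setting, and the difference in borders per interval became 0 when medians were taken; the cause was not tested. With each library left out the differences ranged from 0.461 to 1.45 percentage points flush, 20 to 60 kb of domain length, -24.7 to 5.80 kb of boundary region (5.80 without shHNRNPU replicate 2) and -0.232 to -0.0325 borders per interval. With the replicate block the differences were 0.954 percentage points, 40 kb, -9.47 kb and -0.132 borders per interval, with exact sign-flip p-values of 0.5, 1, 1 and 0.5 over 2 pairs, where 0.5 is the smallest possible. The labels do not tie the numbers to a shared batch. For flush shares on 22 chromosomes, the deviations of same-numbered libraries from their group means had a Pearson correlation of 0.232. GC content, CTCF core matches and HindIII sites around borders were planned and not run, since they need a genome sequence, which was not used here.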

Other observations

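Chromosome X was outside the set described above. By the same rule, 30 of its 187 borders in shLUC replicate 1 were kept, beside 1520 of 3939 (38.6%) on the autosomes. The reason for the difference was not tested. A border within 40 kb was found for 111 of the 187 in shLUC replicate 2, for 97 in shHNRNPU replicate 1 and for 57 in shHNRNPU replicate 2. On the autosomes the shares in these libraries were 66.7%, 66.7% and 54.2%.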
